A study of Mus musculus with 18 samples.

Results

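The transcripts of 10 pluripotency genes were followed through single 2-cell mouse embryos whose fathers either carried or lacked the 110 kDa isoform of poly(ADP-ribose) glycohydrolase (Parg), the main enzyme that removes poly(ADP-ribose) from proteins. They were chosen by RefSeq identifier from the 26823 transcripts of the count tables, and all 10 had a row. The rule uses no measured value, but it was set with earlier results of these data known. They are Pou5f1 (NM_013633), Nanog (NM_028016), Sox2 (NM_011443), Klf4 (NM_010637), Klf5 (NM_009769), Zfp42 (NM_009556), Lin28a (NM_145833), Sall4 (NM_175303), Esrrb (NM_011934) and Myc (NM_010849). RNA-seq was done on 18 individual embryos of the 129SVE strain. Of these, 9 came from 3 wild-type fathers (1, 2 and 3) and 9 from 3 Parg(110)-/- fathers (6, 7 and 8), with 3 embryos per father and wild-type mothers throughout. An embryo is named by its father and its number, so that 8-3 is embryo 3 of father 8. The genotype in the labels is that of the father. Every embryo of a Parg(110)-/- father is heterozygous, since it also received a wild-type Parg copy from its mother. The embryo's own heterozygosity and the genotype of its father cannot be told apart in this design. Libraries were made from amplified cDNA of 1 embryo each, embryos of 1 father are siblings through him, and neither the sex of the embryos nor their exact hour of development was used here. The question was whether the genotype of the father, which in the study altered how sperm keep their histones, went together with a difference in gene expression in the embryo. P-values weigh a difference against the spread between embryos. In the main test the 9 embryos of a group are the replicates, not its 3 fathers.

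Pluripotency is the ability of a cell to give rise to every tissue of the body. It rests on transcription factors that bind each other's genes and switch on the programme of the inner cell mass, with Pou5f1 (Oct4), Sox2 and Nanog at its core and Klf factors, Esrrb, Sall4 and Zfp42 (Rex1) around it. At the 2-cell stage the mouse embryo breaks down RNA inherited from the oocyte while it starts its own transcription, so that a transcript measured here can be maternal, embryonic or both, and the libraries do not tell these apart. Less RNA in an embryo and a smaller share of that RNA cannot be told apart either, since levels are relative to the total of a library.

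Several of these genes have near copies elsewhere in the genome, and this limits what a uniquely mapped read can count. The reads had been kept by the authors only if they mapped to 1 place with at most 1 mismatch. Windows of 50 bases were therefore cut from the longest GENCODE vM1 transcript of each gene and sought in the whole mm9 genome with up to 1 mismatch. The share of windows with a match outside the gene was 54.8% for Zfp42, 41.4% for Nanog, 33.2% for Pou5f1, 25.2% for Klf4 and 12.5% for Lin28a. It was 5.50% for Klf5, between 0.415% (Sox2) and 1.2% (Esrrb) for Sox2, Sall4 and Esrrb, and 0% for Myc. With windows of 100 bases the shares were 32.8% for Zfp42, 23.2% for Pou5f1, 15.5% for Nanog, 8.07% for Lin28a and 5.51% for Klf4, and 0% for each of the other 5 genes. The read length is not given in the sources used here, so the part of each transcript that went uncounted is not known. The following coding windows run 5′ to 3′ on the strand of the gene, from the mm9 genome. The 1 base that differs is in capitals. Only windows that differ by exactly 1 base from the locus with most matches were eligible. They therefore do not measure how close the copies are. Pou5f1 had 1 such window, Klf4 39, Zfp42 135 and Nanog 131, and Lin28a had none. The Pou5f1 window lies at chr17:35647332-35647381 on the plus strand, and its copy at chr1:161223935-161223984 on the plus strand, inside the Rfwd2 gene. The Klf4 window lies at chr4:55542594-55542643 (minus strand) and its copy at chr9:5952595-5952644 (minus strand). The Zfp42 window lies at chr8:44381110-44381159 (minus strand) and its copy at chr15:93509751-93509800 (minus strand). The Nanog window lies at chr6:122663396-122663445 (plus strand) and its copy at chrX:87128854-87128903 (minus strand). The copies on chromosomes 9, 15 and X lie in no gene annotated by GENCODE vM1.
Pou5f1: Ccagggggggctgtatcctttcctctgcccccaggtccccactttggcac
Pou5f1 copy: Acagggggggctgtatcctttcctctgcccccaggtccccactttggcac
Klf4: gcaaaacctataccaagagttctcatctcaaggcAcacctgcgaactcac
Klf4 copy: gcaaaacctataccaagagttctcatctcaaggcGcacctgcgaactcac
Zfp42: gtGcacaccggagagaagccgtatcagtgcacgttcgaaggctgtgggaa
Zfp42 copy: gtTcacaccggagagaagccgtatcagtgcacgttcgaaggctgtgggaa
Nanog: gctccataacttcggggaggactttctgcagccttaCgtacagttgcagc
Nanog copy: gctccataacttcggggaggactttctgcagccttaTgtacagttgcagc

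The libraries held 2852858 to 13355161 counts in the wild-type group (median 7594021) and 3560501 to 12497060 in the Parg(110)-/- group (median 7191377). Levels are given in CPM, the count of a transcript divided by the total of its library and multiplied by 1000000, so that a single count was worth 0.0749 to 0.351 CPM. The total is the sum over all RefSeq rows, and some genes have several rows with the same counts. It is therefore not a number of reads, and the tested transcripts include such repeated rows. Wild-type libraries held counts for 11823 to 16436 transcripts (median 13997) and those of the Parg(110)-/- group for 12064 to 14047 (median 12678). The 10 listed oocyte markers summed to 1576 to 2970 CPM in the wild-type group and 1108 to 4462 CPM in the Parg(110)-/- group, and 8 listed genes of the 2-cell genome activation programme to 15.4 to 122.4 and 37.1 to 188.6 CPM, although single genes of both lists had no count in some embryos. Of 10 cumulus cell markers 6 had no count in any embryo, and the list summed to at most 8.01 CPM in the wild-type and 11.7 CPM in the Parg(110)-/- group. Of 8 sperm and spermatid markers 4 had no count, and the list reached at most 4.64 CPM. The 10 markers of later lineages summed to 16.3 to 81.3 CPM in the wild-type and 23.0 to 55.9 CPM in the Parg(110)-/- group. Among them Gata4, an endoderm factor, had counts in all 18 embryos (means 29.2 and 29.6 CPM), Cdx2, the trophectoderm factor, in 1 embryo of each group and Sox17 in none. The Parg transcript itself (NM_011960) measured 74.7 ± 32.1 CPM (SD, n = 9) in the wild-type and 46.4 ± 18.3 CPM (SD, n = 9) in the Parg(110)-/- group, a log2 fold change of -0.67 (SE 0.34, adjusted p = 0.872, edgeR). Because the embryos inherited a wild-type maternal copy, its level does not check the label of the father.

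Transcripts of the 10 genes were spread over a wide range, and compared per length they fell into an order with Pou5f1 far above the rest. The median over the 18 embryos, in CPM per kb of the longest annotated transcript, was 124.2 for Pou5f1, 25.4 for Lin28a, 17.96 for Klf4, 14.9 for Sall4, 4.56 for Klf5, 3.04 for Esrrb and 1.47 for Zfp42. The medians of Myc, Sox2 and Nanog were 0. The neighbour pairs were set by the medians of the same embryos, so their tests were chosen from the data. They were compared within embryos by an exact sign-flip permutation test (both tails), adjusted over the 9 neighbour pairs. Pou5f1 exceeded Lin28a in 18 of 18 embryos (mean difference 110.9 ± 63.8 CPM per kb, SD, adjusted p = 6.87e-05 by the exact permutation test, whose smallest possible unadjusted p is 7.63e-06). Lin28a exceeded Klf4 in 14 of 18 embryos (difference 11.7 ± 16.8 CPM per kb, adjusted p = 0.0448 by the exact permutation test). The other 7 neighbour pairs did not differ beyond their spread at an adjusted p below 0.05. At the limit of 0.1 used for the calls, Sall4 over Klf5, Klf5 over Esrrb and Myc over Sox2 (adjusted p = 0.0571, exact permutation test) would also pass. Klf4 exceeded Sall4 in only 10 of 18 embryos (adjusted p = 0.125, exact permutation test), and Sall4 exceeded Klf5 in 14 of 18 (adjusted p = 0.0538, exact permutation test). At 0.05 the places of Klf5, Esrrb and Zfp42 relative to each other were not settled. The adjusted p was 0.0899 for Klf5 over Esrrb and 0.778 for Esrrb over Zfp42 (exact permutation test). Of the 50-base windows of Zfp42, 54.8% had a match elsewhere. With the length of all annotated exons in place of the longest transcript, the difference of Pou5f1 over Lin28a was 54.3 CPM per kb (adjusted p = 6.87e-05, exact permutation test), Klf5 exceeded Esrrb (adjusted p = 0.0211, exact permutation test) and the difference of Esrrb minus Zfp42 was -0.891 CPM per kb (adjusted p = 0.459, exact permutation test).

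**Figure D1:**
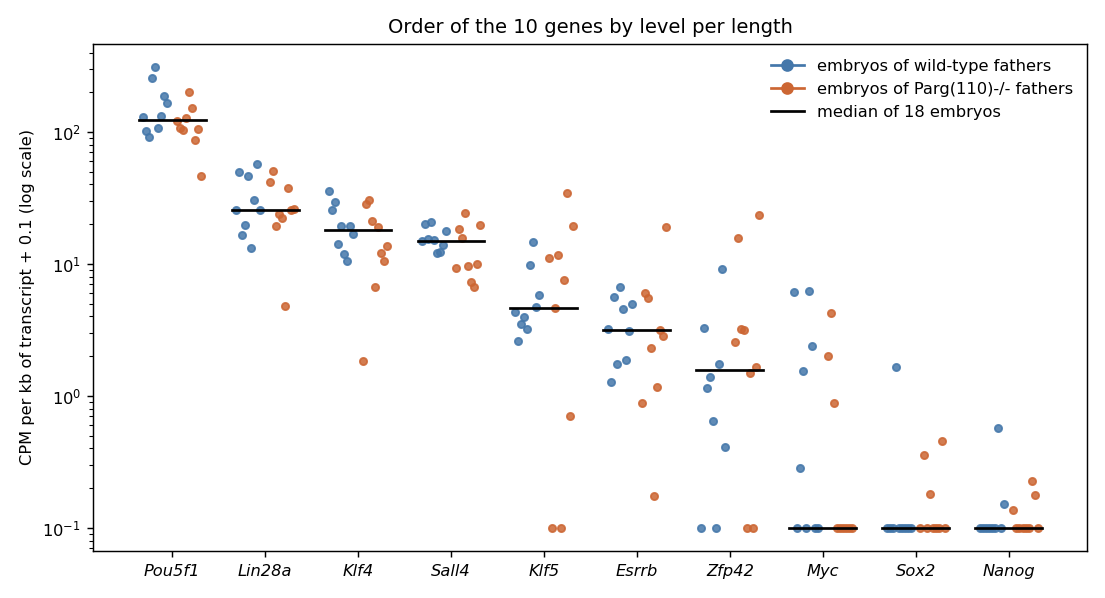
Level of each gene in each 2-cell embryo, in CPM per kb of the longest annotated transcript plus 0.1 on a log axis, for 9 embryos of wild-type (blue) and 9 of Parg(110)-/- fathers (orange). Black bars are medians of the 18 embryos, which run from 124.2 for Pou5f1 down to 0 for Myc, Sox2 and Nanog, and points on the lowest line have no counts.

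Of the 10 genes, 8 passed the low-count filter (10 or more counts in 3 or more embryos) and were tested between the groups with all 15333 transcripts that passed it. The edgeR quasi-likelihood test called 0 of the 8 at an adjusted p below 0.1, with a smallest adjusted p of 0.903, and the same test called 0% of all tested transcripts. At an unadjusted p below 0.05 there were 889 transcripts (5.80%) and none of the 8 genes. The Wald test of DESeq2, given the same 15333 transcripts, called 38 and none of the 8 genes. With counts summed per father, edgeR called 0 of the 8 genes and 0 of all tested transcripts. In the main test the median log2 fold change of all tested transcripts was -0.02. For each of the 8 genes the difference between the group means was smaller than the larger of the SDs of the groups, as the plot of their levels by father shows.

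**Figure D2:**
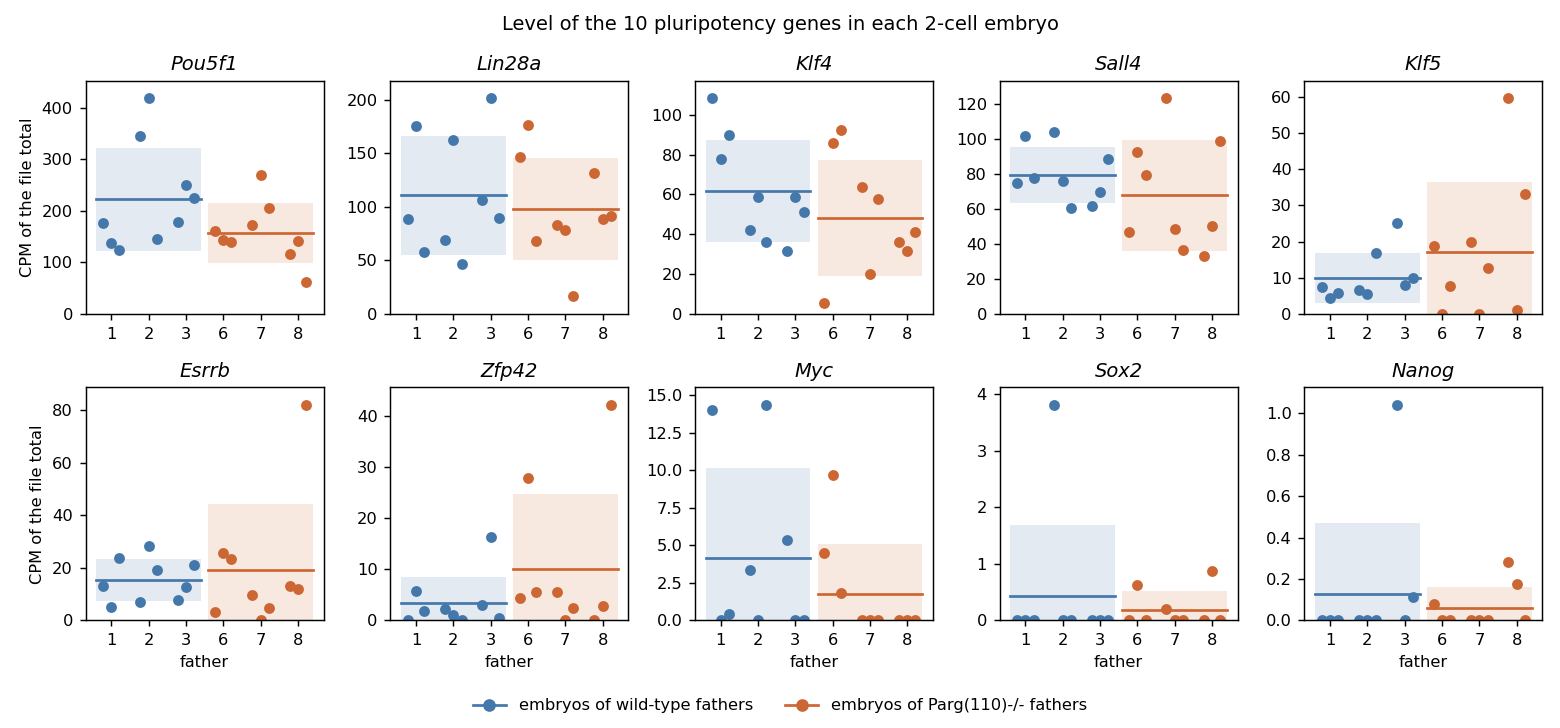
Level (CPM of the library total, linear axes from 0, a scale of its own for each gene) in each of 18 embryos, grouped by father on the horizontal axis, with wild-type fathers 1 to 3 in blue and Parg(110)-/- fathers 6 to 8 in orange. Lines are group means and shaded bands 1 SD (n = 9); the bands of the groups overlap for every gene.

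Pou5f1, the POU-domain factor at the centre of the network, is located at chr17:35642982-35647721 (mm9, plus strand) and was the most abundant of the 10. It lay between 123.9 and 418.3 CPM in the wild-type group (median 178.7) and between 62.3 and 269.9 CPM in the Parg(110)-/- group (median 144.4). The groups overlapped widely, with 2 embryos of father 8 (8-3 at 62.3 and 8-1 at 116.8 CPM) below all wild-type embryos and the 2 highest values of all (418.3 and 344.6 CPM) in embryos of the wild-type father 2. Group means were 222 ± 101 CPM (SD, n = 9) and 157 ± 57.8 CPM (SD, n = 9). The log2 fold change of the Parg(110)-/- group was -0.50 (SE 0.29, 95% interval -1.11 to 0.11, adjusted p = 0.903, edgeR), the smallest unadjusted p among the members (0.096). Without father 2 it was -0.19 and without father 7 it was -0.80. For father 8 alone against the wild-type embryos it was -1.08 (SE 0.43, unadjusted p = 0.0214, adjusted p = 0.556, edgeR), for father 6 -0.57 (adjusted p = 0.881) and for father 7 -0.02 (adjusted p = 0.998). Of all transcripts tested for father 8, 8.94% had an unadjusted p below 0.05. Whether the fathers differ from each other was not tested.

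Sox2, the partner of Pou5f1 on DNA, and Nanog, the homeodomain factor that stabilises the network in the inner cell mass, were nearly without counts. Sox2 (a single-exon gene at chr3:34548927-34551383, plus strand) had 51 counts (3.82 CPM) in wild-type embryo 2-1 and none in the other 8 wild-type embryos. In the Parg(110)-/- group it had counts in 3 of 9 embryos, 6 in 6-2, 1 in 7-1 and 5 in 8-2, or at most 0.871 CPM. Sox2 lies within the span of the long noncoding gene Sox2ot on the same strand. Whether an exon of Sox2ot overlaps that of Sox2 was not tested. Nanog (chr6:122657507-122664651, plus strand) had 10 counts over all 18 embryos, of which 7 were in 2 wild-type and 3 in 3 Parg(110)-/- embryos, and it did not exceed 1.04 CPM. A count of 0 allows up to 3 counts, or 0.225 to 1.05 CPM depending on the library, for counting error only. Neither gene passed the filter, and no fold change is given for them.

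Sall4, a zinc-finger factor that works with Pou5f1, is located at chr2:168573832-168593443 (minus strand) and was the member with the most even levels in wild-type embryos. It lay between 60.6 and 104.2 CPM in the wild-type group (median 76.3) and between 33.1 and 123.4 CPM in the Parg(110)-/- group (median 50.4). Of the 9 Parg(110)-/- embryos, 5 (6-1, 7-2, 7-3, 8-1 and 8-2, at least 1 from each father) lay below every wild-type embryo, and 7-1 lay above every wild-type embryo. This measure was chosen after its values were seen, and 2.03% of all tested transcripts had at least 5 Parg(110)-/- embryos below the lowest wild-type embryo. That share includes transcripts without counts in some wild-type embryo, which cannot meet this. Group means were 79.5 ± 15.8 and 67.8 ± 31.8 CPM (SD, n = 9 each), and the log2 fold change was -0.22 (SE 0.30, 95% interval -0.86 to 0.43, adjusted p = 0.976, edgeR). The RefSeq tables hold 2 more Sall4 transcripts (NM_201395 and NM_201396) that share reads with it, with means of 64.5 ± 15.1 against 60.1 ± 31.7 CPM and 55.97 ± 12.4 against 54.3 ± 28.99 CPM (SD, n = 9 each). They are not independent measurements, and in them 4 and 2 Parg(110)-/- embryos lay below every wild-type embryo, in place of 5. The 5′ end of Sall4 also overlaps Gm14261, a noncoding gene on the opposite strand, and whether counting used the strand is not given in the sources used here.

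Klf4, a Krüppel-like factor used in reprogramming, is located at chr4:55540013-55545347 (minus strand). It lay between 31.4 and 108.3 CPM in the wild-type group (median 58.6) and between 5.28 and 92.3 CPM in the Parg(110)-/- group (median 41.3). The lowest values were in Parg(110)-/- embryos 6-1 (5.28 CPM) and 7-2 (19.9 CPM), below all wild-type embryos, while embryos 6-2 and 6-3 of the same father as 6-1 measured 85.7 and 92.3 CPM. Among wild-type fathers the 3 highest values (77.7 to 108.3 CPM) all belonged to father 1. Means were 61.6 ± 25.7 and 48.2 ± 29.1 CPM (SD, n = 9 each), with a log2 fold change of -0.36 (SE 0.42, 95% interval -1.25 to 0.53, adjusted p = 0.971, edgeR). Without father 1 it was 0.06, so its sign rested on that father.

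Klf5, the relative of Klf4 that acts in the first cell lineages, is located at chr14:99697910-99712624 (plus strand). It was present in all 9 wild-type embryos, between 4.33 and 25.2 CPM (median 7.31), and ranged from 0 to 59.5 CPM in the Parg(110)-/- group (median 12.8). Embryos 6-2 and 7-2 had no count, which allows 0.313 and 0.320 CPM, and 8-2 had 1.05 CPM, while 8-1 (59.5 CPM) and 8-3 (33.2 CPM) exceeded every wild-type embryo. In all, 3 of 9 embryos lay below and 2 above the wild-type range. No share over all tested transcripts stands beside these counts, nor beside such embryos of the other genes except Sall4. Means were 9.92 ± 6.80 and 17.0 ± 19.4 CPM (SD, n = 9 each), and the log2 fold change was 0.77 (SE 0.90, 95% interval -1.14 to 2.67, adjusted p = 0.971, edgeR). It was 0.01 without father 8, 0.27 without embryo 8-1 and -1.24 with limma-voom, so that its direction was not fixed by these data.

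Myc, a growth-promoting factor of the original reprogramming set, is located at chr15:61816946-61821929 (plus strand). It had counts in 5 of 9 wild-type embryos, at 0.432 to 14.4 CPM, and in 3 of 9 Parg(110)-/- embryos. All 3 came from father 6 (1.84, 4.48 and 9.72 CPM), and the 6 embryos of fathers 7 and 8 had none. Wild-type embryos without counts came from each of the 3 wild-type fathers (1-2, 2-2, 3-2 and 3-3). Means were 4.17 ± 5.98 and 1.78 ± 3.34 CPM (SD, n = 9 each), with a log2 fold change of -1.19 (SE 1.58, 95% interval -4.55 to 2.16, adjusted p = 0.974, edgeR). It was -2.31 without embryo 6-2 and -0.66 without wild-type embryo 1-1. For fathers 7 and 8, which had no count at all, the unadjusted p against the wild-type embryos was 0.0293 and 0.0301 (adjusted p = 0.559 and 0.556, edgeR), where 8.78% and 8.94% of all tested transcripts had an unadjusted p below 0.05. No fold change is given for these. The 3 other Myc rows (NM_001177352, NM_001177353 and NM_001177354) held the same counts and add nothing.

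Esrrb, an orphan nuclear receptor of the network, is located at chr12:87702067-87862578 (plus strand). It lay between 5.03 and 28.3 CPM in the wild-type group (median 13.3) and between 0.320 and 82.2 CPM in the Parg(110)-/- group (median 11.9). Embryo 8-3 stood far above all others at 82.2 CPM, and the next highest Parg(110)-/- embryo, 6-2, measured 25.6 CPM. Embryos 6-1 (3.36), 7-2 (0.320) and 7-3 (4.56 CPM) lay below every wild-type embryo. Means were 15.3 ± 8.13 and 19.3 ± 25.1 CPM (SD, n = 9 each), and the log2 fold change was 0.35 (SE 0.69, 95% interval -1.11 to 1.80, adjusted p = 0.986, edgeR). Without embryo 8-3 it was -0.42 (adjusted p = 0.980, edgeR). The other Esrrb row (NM_001159500) held the same counts.

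Zfp42 (Rex1), a zinc-finger gene widely used as a marker of naive pluripotent cells, is located at chr8:44380422-44392363 (minus strand). It lay between 0 and 16.3 CPM in the wild-type group (median 1.87) and between 0 and 42.3 CPM in the Parg(110)-/- group (median 4.40), with counts in 7 of 9 embryos of each. Embryos 8-3 (42.3 CPM) and 6-2 (27.9 CPM) exceeded every wild-type embryo, of which 3-2 was the highest. Means were 3.42 ± 5.16 and 10.1 ± 14.7 CPM (SD, n = 9 each), with a log2 fold change of 1.61 (SE 1.17, 95% interval -0.88 to 4.09, adjusted p = 0.943, edgeR). It was 0.86 without embryo 8-3 and 2.50 without wild-type embryo 3-2. For this gene the spread within groups was larger than the means themselves.

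Lin28a encodes an RNA-binding protein that blocks maturation of let-7 microRNAs, and it is located at chr4:133559245-133574756 (minus strand). It lay between 46.3 and 201.3 CPM in the wild-type group (median 89.3) and between 16.4 and 176.7 CPM in the Parg(110)-/- group (median 88.9). Only embryo 7-3, at 16.4 CPM, lay outside the wild-type range. Means were 111 ± 55.5 and 97.8 ± 47.4 CPM (SD, n = 9 each), and the log2 fold change was -0.18 (SE 0.37, 95% interval -0.95 to 0.60, adjusted p = 0.988, edgeR). It was 0.08 without father 7, whose embryo 7-3 held the low value. Its 5′ end overlaps the noncoding gene Gm13061 on the opposite strand.

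The members differed in how evenly they were measured within a group. The coefficient of variation (SD over mean) of CPM in the wild-type group was 19.9% for Sall4, 41.8% for Klf4, 45.4% for Pou5f1, 50.1% for Lin28a and 52.95% for Esrrb, then 68.5% for Klf5, 143.4% for Myc and 151.1% for Zfp42. Over all tested transcripts its median was 95.1% (10th to 90th percentile 37.96 to 198.7%), and 0.861% of them had a lower value than Sall4. In the Parg(110)-/- group it was 46.95% for Sall4, 129.7% for Esrrb and 114.2% for Klf5, while it was 36.8% for Pou5f1 and 48.5% for Lin28a, and the median of all tested transcripts was 106.8%. The Parg(110)-/- value was at least 2 times the wild-type value for Sall4 and Esrrb, that is for 2 of 8 genes, against 6.07% of all tested transcripts. This measure was chosen after the values were seen, the difference in spread was not tested, and for Esrrb it rests on embryo 8-3. The coefficient cannot exceed a limit set by the number of embryos. Transcripts with high wild-type values therefore cannot reach 2 times that value, yet they are part of the tested transcripts behind the 6.07%.

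**Figure D3:**
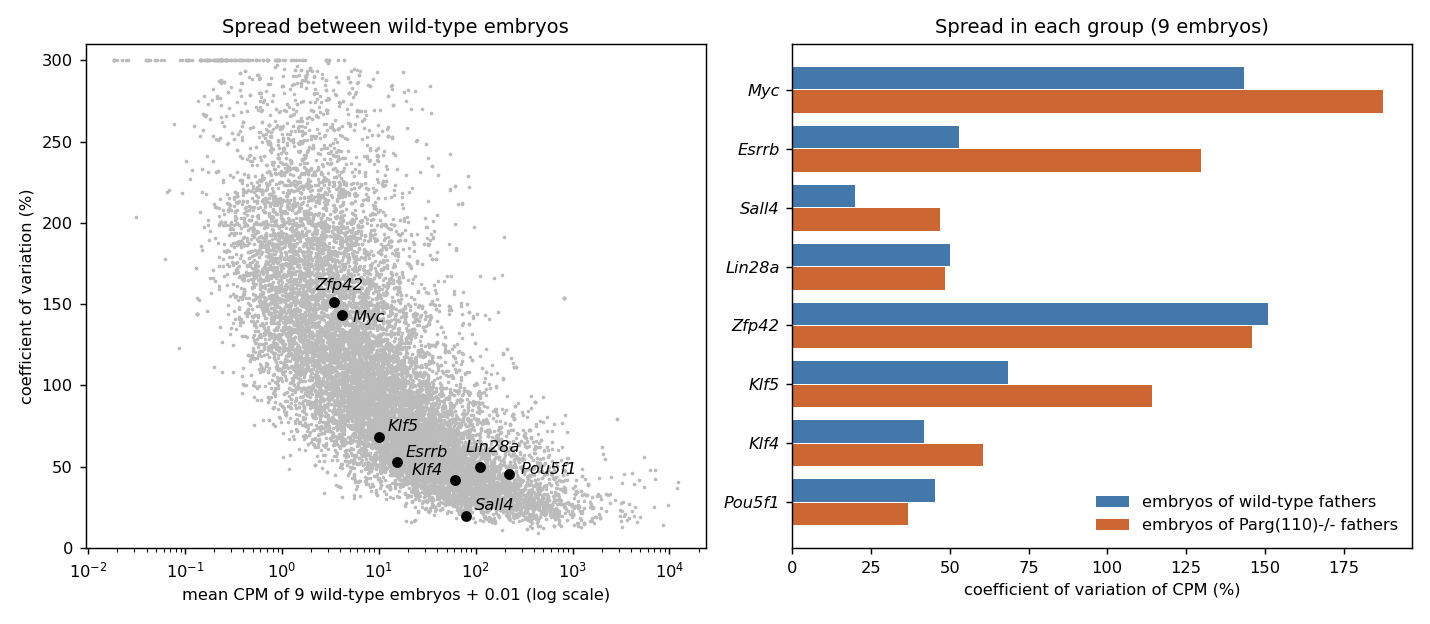
Left, coefficient of variation of CPM between the 9 wild-type embryos (percent) against mean CPM plus 0.01 on a log axis, for 15333 tested transcripts (grey) and the 8 tested genes (black). Right, the same coefficient in each group (bars from 0), with Sall4 at 19.9% in wild-type and 46.95% in Parg(110)-/- embryos.

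Single embryos were also set against the 9 wild-type embryos, because the study compared individual embryos in this way. Of 81 tests of 9 genes (all but Nanog, which stayed under the filter) in 9 embryos, edgeR called 0 at an adjusted p below 0.1, and the smallest adjusted p was 0.343. A lone embryo is assumed in these tests to vary as the wild-type embryos do. The 9 tests with an unadjusted p below 0.05 were Klf4 in 6-1, Klf5 in 6-2, 7-2 and 8-1, Esrrb in 7-2 and 8-3, Lin28a in 7-3, and Pou5f1 and Zfp42 in 8-3. They are 11.1% of the 81 tests, and over all tested transcripts the share was 5.72% in the 9 embryos together, from 3.96% in 6-3 to 8.47% in 7-2. Tests of genes in 1 embryo share its library and the wild-type embryos. Embryo 8-3 combined the lowest Pou5f1 of all 18 embryos (62.3 CPM, log2 fold change -1.78, unadjusted p = 0.0274, edgeR) with the highest Esrrb (82.2 CPM, log2 fold change 2.47, unadjusted p = 0.0130, edgeR) and the highest Zfp42 (42.3 CPM, log2 fold change 3.69, unadjusted p = 0.0418, edgeR), each with an adjusted p of 0.690. Its library was of middle size (7191377 counts, 12678 transcripts). Embryo 7-2, with no Klf5, 0.320 CPM of Esrrb and 19.9 CPM of Klf4, also had the highest Pou5f1 of its group (269.9 CPM), and its library held the fewest transcripts of the Parg(110)-/- group (12064) at 9367261 counts. The part of these library values in the result was not tested. Over all tested transcripts the share called was 0.027% in 6-1, 0.0108% in 6-2, 0.0162% in 6-3, 0.157% in 7-1, 0.157% in 7-2, 0.103% in 7-3, 0% in 8-1, 0.0545% in 8-2 and 0% in 8-3. By father, edgeR called none of the 8 tested genes in father 6 (0.00696% of all tested transcripts), father 7 (0%) or father 8 (0%).

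Across all 18 embryos the members did not move as a block. The highest rank correlations between 2 of them were those of Klf4 with Sall4 (Spearman's rho 0.53) and with Esrrb (0.52), and the lowest were those of Pou5f1 with Klf5 (-0.29) and with Zfp42 (-0.28). These values describe 18 amplified libraries that differ in depth, and they carry no test. By the same measure, the transcripts of other genes most like Pou5f1 were Rgs16 (rho 0.80), Gm10248 (0.75) and Phtf2 (0.75), those most like Lin28a were Ccnb1ip1 (0.85), Clpx (0.81) and Ccdc69 (0.81), and those most like Klf4 were Ube2a (0.82), Tmem143 (0.80) and Arpc2 (0.79). Sall4 had the closest match of all, Adgra3 (0.91), followed by Zfp558 (0.85) and Map2k4 (0.85). The named genes are the highest of a search over 15333 transcripts in 18 embryos, and whether such values exceed chance was not tested. Of those most like Pou5f1, mean levels were 1.98 CPM for Rgs16, 2.88 for Gm10248 and 160.9 for Phtf2.

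Other genes of the network were read from lists of naive network factors, of pluripotency markers and targets, and of family relatives of the 10 genes. None of the 33 tested genes was called higher or lower (against 0% of all tested transcripts), and none had an unadjusted p below 0.05. Of 12 naive network factors 10 were tested, with a median log2 fold change of 0.11 and 9 of 10 above 0. The most abundant were Rif1, a telomere and replication timing protein (705 ± 157 against 737 ± 148 CPM, SD, n = 9 each, log2 fold change 0.06), and Nr5a2, a nuclear receptor that can take the place of Pou5f1 in reprogramming (354 ± 113 against 357 ± 151 CPM, log2 fold change 0.02). Both lay above Pou5f1 in CPM, which is not per length. The smallest unadjusted p values were those of Prdm14, a regulator of the germ line (log2 fold change 3.09, SE 1.82, adjusted p = 0.908, edgeR), which had counts in 2 wild-type and 3 Parg(110)-/- embryos, and of the T-box factor Tbx3 (-0.45, SE 0.42, adjusted p = 0.966, edgeR). Nr0b1 had no count in any embryo. The list was read at the gene whose current symbol is Tcf3, and Tcf7l1 is not in it. The share of all tested transcripts above 0 was not set beside the sign counts of this and the other lists, and these counts were not tested.

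Of 12 pluripotency markers and targets 10 were tested, with a median log2 fold change of 0.04 and 5 of 10 above 0, and Tet1 had no row. The most abundant were Fbxo15, an F-box gene first known as a Pou5f1 target (269 ± 55.9 against 320 ± 102 CPM, SD, n = 9 each, log2 fold change 0.26, adjusted p = 0.966, edgeR), and Dppa3 (Stella), a maternal protein that protects methylation in the zygote (291 ± 80.6 against 287 ± 55.3 CPM, log2 fold change -0.01). Dnmt3l, a cofactor of DNA methylation, had the smallest unadjusted p (log2 fold change 1.03, SE 0.71, adjusted p = 0.934, edgeR). Of 20 family relatives 13 were tested, with a median log2 fold change of -0.10 and 4 of 13 above 0. The most abundant were Max, the partner of Myc on DNA (568 ± 285 against 529 ± 359 CPM, SD, n = 9 each, log2 fold change -0.09), and Klf17, a Krüppel-like factor of oocyte and early embryo (327 ± 83.8 against 321 ± 83.9 CPM, log2 fold change -0.03). Within the Klf family, Klf17 thus measured more CPM than Klf4 or Klf5 in both group means. The smallest unadjusted p values were those of Klf10 (log2 fold change 2.68, SE 1.67, adjusted p = 0.917, edgeR) and of the POU factor Pou2f1 (-1.02, SE 0.78, adjusted p = 0.947, edgeR).

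**Figure D4:**
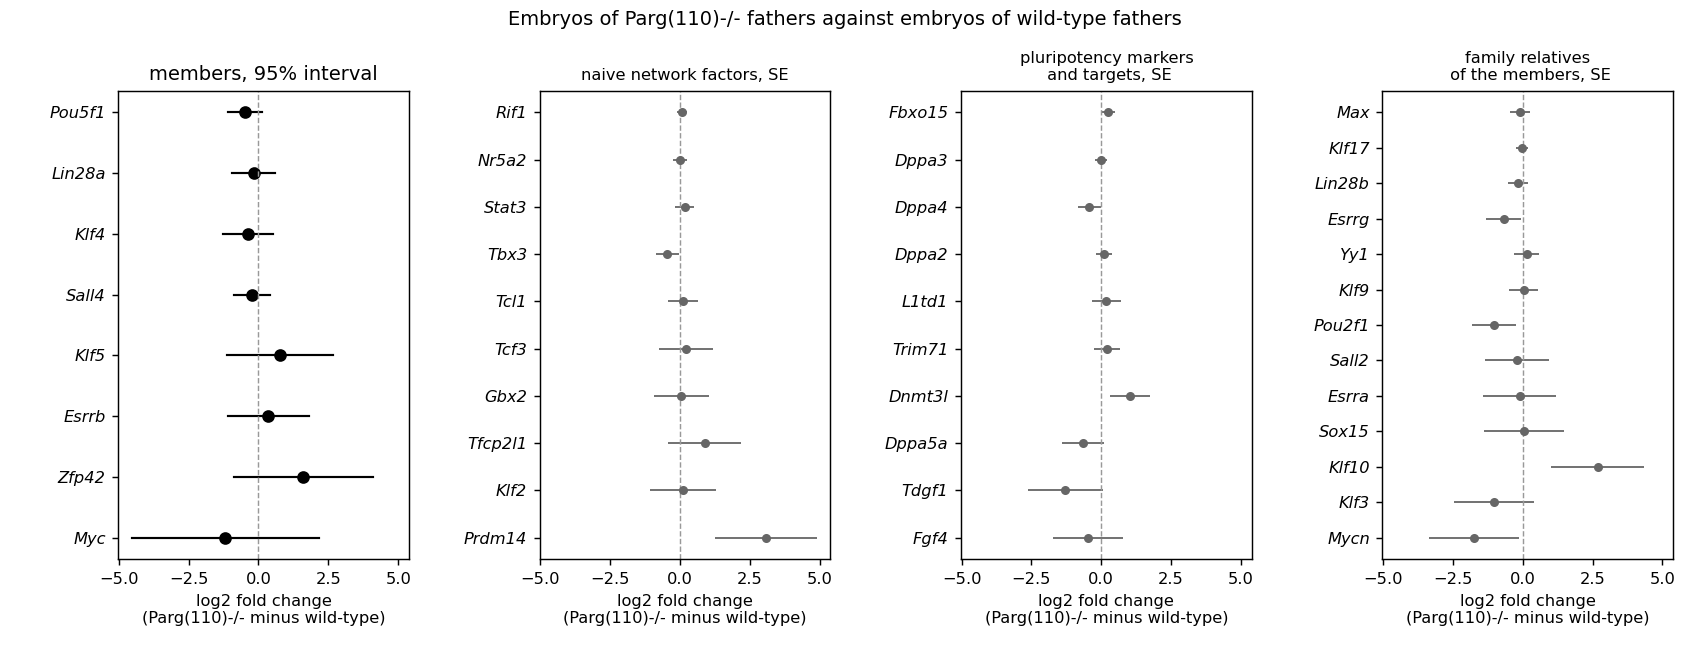
Log2 fold change of the 9 Parg(110)-/- against the 9 wild-type embryos (edgeR) for the 8 tested genes with 95% intervals and for the 33 tested genes of the 3 companion lists with SE, each panel ordered by level. All 8 intervals include 0.

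**Figure D5:**
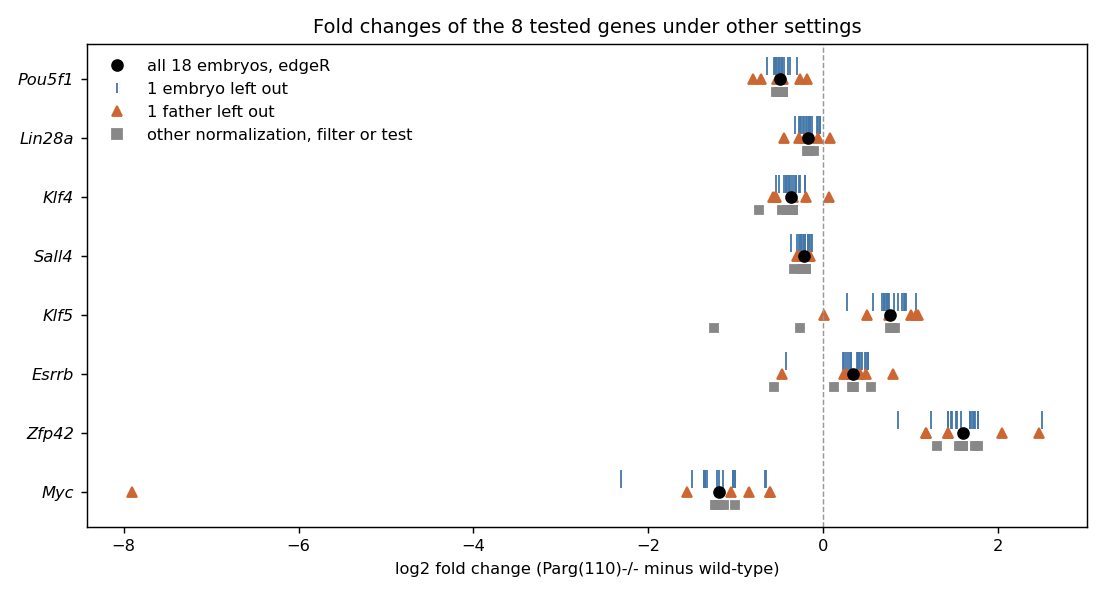
Log2 fold change of the 8 tested genes with all 18 embryos (black), with 1 embryo (blue) or 1 father (orange) left out, and with another normalization, filter or test (grey squares). Pou5f1 and Sall4 stayed below 0 and Zfp42 above 0 in every setting shown, and Klf4, Lin28a, Klf5 and Esrrb crossed 0 in at least 1.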

How the data were processed

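The authors amplified total RNA of single embryos (WT-Ovation One-Direct), sequenced it, mapped reads to mm9 with RUM, kept unique reads with at most 1 mismatch, and used DESeq (1.10.0 per the labels). They deposited raw counts per RefSeq transcript, which are the values used here. The counter, RefSeq release, read length and strand setting are not given in the sources used here.

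CPM used the library total. The main test was edgeR's quasi-likelihood F-test (version 4.0.16, R 4.3.3) on TMM-scaled counts. Each SE was derived from it, as the absolute log2 fold change over the square root of F. The 95% intervals used 16 residual degrees of freedom, so they need not match the p-values, which edgeR computed with its own. P-values were adjusted by Benjamini and Hochberg over all transcripts tested, and calls were made below 0.1, after a filter of 10 or more counts in 3 or more embryos (1 or more for single embryos). Alternatives were DESeq2 1.42.0, limma-voom (3.58.1) treating fathers as a random effect, counts summed per father, other normalizations and filters, and leaving out each father or embryo. No 2 libraries agreed within sampling noise (chi-square per degree of freedom over 6606 transcripts at least 100 in all 153 pairs). Symbols were found for 97.4% of rows by accession in a RefSeq table of GRCm38.p6, used for names alone, and positions come from GENCODE vM1 on mm9.

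The members and lists were chosen with earlier results of these data known. All 10 members are named. From each companion list the genes past the threshold, or else those with the 2 smallest unadjusted p values, and the 2 of highest mean CPM are named, and likeness is given for the members of highest level. A gene with several rows was read at the one with most counts.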

Additional observations from a re-analysis of the deposited data

Results flagged for a closer look

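In 5 of 20 groups of 9 embryos (10 genes in each paternal genotype) the highest embryo stood apart from the other 8 by a gap beyond the limit of Dixon's test, which chance alone passes in about 1 of 20 groups of normally distributed values. CPM values are not normally distributed here, and 32.0% of all tested transcripts in the wild-type and 35.2% in the Parg(110)-/- group passed the same limit. In the wild-type group these were Nanog in embryo 3-1 (1.042 CPM), Sox2 in 2-1 (3.819 CPM) and Zfp42 in 3-2 (16.33 CPM). In the Parg(110)-/- group they were Esrrb in embryo 8-3 (82.18 CPM) and Myc in 6-2 (9.717 CPM). Apart from Esrrb, each of these genes had embryos of the same group without any count, and a gene counted in 1 embryo, such as Sox2 in the wild-type group, passes the limit by construction.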

How the results depend on the processing

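None of 84 recomputed counts of called members rose above 0. In the main edgeR fits the share of all tested transcripts called was 0% between the groups. It was at most 0.00696% by father and at most 0.157% by embryo. At such shares a count of 0 says little about the members. Of 416 recomputed values, 400 kept their direction and side of the threshold or stayed within 1.5 times. The log2 fold change of Klf4 ran from -0.57 to 0.064 with 1 father or embryo left out (0.064 without father 1), that of Lin28a from -0.45 to 0.075 (0.075 without father 7), and that of Esrrb from -0.47 to 0.80 (-0.47 without father 8, -0.42 without embryo 8-3). Limma-voom gave -0.56 for Esrrb and -1.24 for Klf5, and a replicate block by embryo number gave -0.27 for Klf5. That of Myc was -7.91 without father 6, against 6 embryos without a count, and is no bound. The cause of these moves was not tested. With the length of all annotated exons, chosen after seeing the data, Esrrb minus Zfp42 was -0.891 CPM per kb, Klf5 minus Esrrb 4.96 and Pou5f1 minus Lin28a 54.3.

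Transcripts called between the groups numbered 0 by edgeR, 38 by DESeq2 and 0 to 5 with 1 father or embryo left out (5 without father 6, 2 without embryo 6-1, 2 without 7-1). For fathers 6, 7 and 8, 14377, 14039 and 13936 transcripts passed the filter. Of these DESeq2 called 189, 356 and 289, against 1, 0 and 0 by edgeR. None was a member, which at shares this small says little about the 8 members tested. Embryo numbers pair nothing in the labels, and same-numbered embryos of different fathers had a median correlation of 0.0025 across the groups, against -0.0017 for other pairs. Sox2 and Nanog had too few counts for the filter. Embryos without a count of Myc or Zfp42 included deep libraries (7-2 at 9367261 counts for Myc, 1-1 at 11361889 for Zfp42), and the part of depth was not tested. Each embryo was amplified on its own, and each genotype has 3 fathers.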
